A study of Mus musculus with 24 samples.

Results

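The Rab GTPase genes are the genes of the Rab family of small GTP-binding proteins. They were taken as every protein-coding gene whose symbol is Rab followed by digits and at most 1 letter and 1 digit, and 59 of the 55414 genes in the count matrix met that rule. Of these, 51 had enough counts to be tested and 8 did not. The measurements are total RNA sequencing of 24 libraries, each made from a pool of about 500 basal forebrain neurons (medial septum with the vertical limb of the diagonal band) that had been stained for choline acetyltransferase and cut out by laser. The 4 groups were male mice aged about 6 months: 2N (disomic) mice whose dams ate the control diet with 1.1 g/kg choline chloride (n = 6), Ts65Dn mice of control-diet dams (n = 6), 2N mice of dams on the supplemented diet with 5.0 g/kg (n = 4), and Ts65Dn mice of supplemented dams (n = 8). All pups came from Ts65Dn dams and C57Bl/6J Eicher × C3H/HeSnJ F1 sires, received their dam's diet from conception to weaning, and ate the control diet afterwards. These group sizes follow the genotype and treatment labels, whereas the design text states 6 mice per group. Ts65Dn mice, a model of Down syndrome, carry an extra chromosome that holds parts of chromosomes 16 and 17. No Rab gene lies on chromosome 16, and the 7 on chromosome 17 all lie distal to Pde10a, outside the triplicated part, so no member is triplicated.

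Rab proteins switch between a membrane-bound GTP form and a GDP form that is held in the cytosol. Each one marks a membrane compartment and recruits effectors that move, tether or fuse vesicles: Rab5 acts on early endosomes, Rab4 and Rab11 on recycling, Rab7 on late endosomes, Rab3 and Rab27 on regulated secretion, and Rab1, Rab2 and Rab6 between the endoplasmic reticulum and the Golgi. In basal forebrain cholinergic neurons, endosomes carry neurotrophin receptors from the axon terminal back to the cell body. Enlarged early endosomes are a known feature of Down syndrome and of Ts65Dn mice.

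No Rab gene passed edgeR's test in any comparison. The 3 members described in most detail below, Rab3b, Rab10 and Rab28, were those with an unadjusted p under 0.05 both as lower in Ts65Dn than in 2N on the control diet and as higher in supplemented than in control-diet Ts65Dn. None of these passed adjustment. These are 3 of 51 tested members, and 3.07% of all 19967 genes tested (613) met the same pair of criteria. Both comparisons use the control-diet Ts65Dn libraries, so a low value there moves a gene towards both criteria. Their upstream sequences are shown because these members met both criteria. Each is the 250 bases before the RefSeq transcript start (RefSeq, GRCm38.p6), written 5′ to 3′ on the gene's strand. Capitals mark a GC box (GGGCGG or its reverse complement CCGCCC) or a CCAAT box (CCAAT or ATTGG).
Rab3b (chr4:108878820-108879069, plus strand): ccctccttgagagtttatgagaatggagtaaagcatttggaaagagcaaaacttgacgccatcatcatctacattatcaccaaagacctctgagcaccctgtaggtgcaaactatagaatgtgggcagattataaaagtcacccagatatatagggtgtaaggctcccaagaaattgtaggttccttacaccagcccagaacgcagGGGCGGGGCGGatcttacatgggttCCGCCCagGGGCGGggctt
Rab10 (chr12:3309970-3310219, minus strand): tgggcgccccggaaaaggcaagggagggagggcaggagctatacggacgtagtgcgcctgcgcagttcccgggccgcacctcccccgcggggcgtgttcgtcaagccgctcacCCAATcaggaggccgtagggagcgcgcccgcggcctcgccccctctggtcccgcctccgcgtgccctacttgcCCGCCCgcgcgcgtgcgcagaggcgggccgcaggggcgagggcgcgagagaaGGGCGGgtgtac
Rab28 (chr5:41708180-41708429, minus strand): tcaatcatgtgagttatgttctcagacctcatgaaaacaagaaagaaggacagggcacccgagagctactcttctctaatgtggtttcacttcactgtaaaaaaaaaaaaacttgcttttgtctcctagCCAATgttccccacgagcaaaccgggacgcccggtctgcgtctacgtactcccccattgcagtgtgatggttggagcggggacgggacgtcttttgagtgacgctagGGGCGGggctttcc

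The Rab3b window held 4 GC boxes, of which 2 overlap, and no CCAAT box. The Rab10 window had 2 GC boxes and 1 CCAAT box, and the Rab28 window had 1 of each. All 3 windows also carried TGACG, the core of the cAMP response element, on 1 of the strands. These letters were common in the family: 48 members had a window, and of their 60 windows 66.7% held a GC box against 32.7% of all 32851 windows. For TGACG (or CGTCA) the shares were 40.0% and 17.8%, for CCAAT 40.0% and 33.8%, for the E-box CACGTG 8.33% and 6.02%, and for TATAAA (or TTTATA) 6.67% and 12.4%. The median GC content was 60.2% in Rab windows and 52.4% in all windows, so the motif shares were not matched for base composition. A match is a description of these letters and not of a bound site.

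Levels between genes were compared in TPM, which is scaled by transcript length, over all 24 libraries. Rab3a, the synaptic vesicle Rab, had the highest mean at 204 ± 70.9 TPM (SD, n = 24) and exceeded the next gene in 23 libraries. Rab6b, a neuronal Golgi Rab, followed at 106 ± 67.9 TPM, and Rab7, which drives early endosomes to late ones, at 86.9 ± 49.3 TPM. Rab11b and Rab11a, of the slow recycling route, had 81.6 ± 38.9 and 60.9 ± 41.3 TPM. Next came Rab3c at 50.5 ± 31.5, Rab14 at 49.7 ± 30.7 and Rab3b at 49.3 ± 29.5 TPM, which lay well within 1 SD of each other. From Rab6b downwards each member lay within 1 SD of the next. The early endosome Rabs stood lower in this order, with Rab5c at 31.9 ± 25.7, Rab5a at 11.7 ± 7.93 and Rab5b at 11.6 ± 7.32 TPM. The plot of TPM by member shows this order together with the wide range between libraries.

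**Figure D1:**
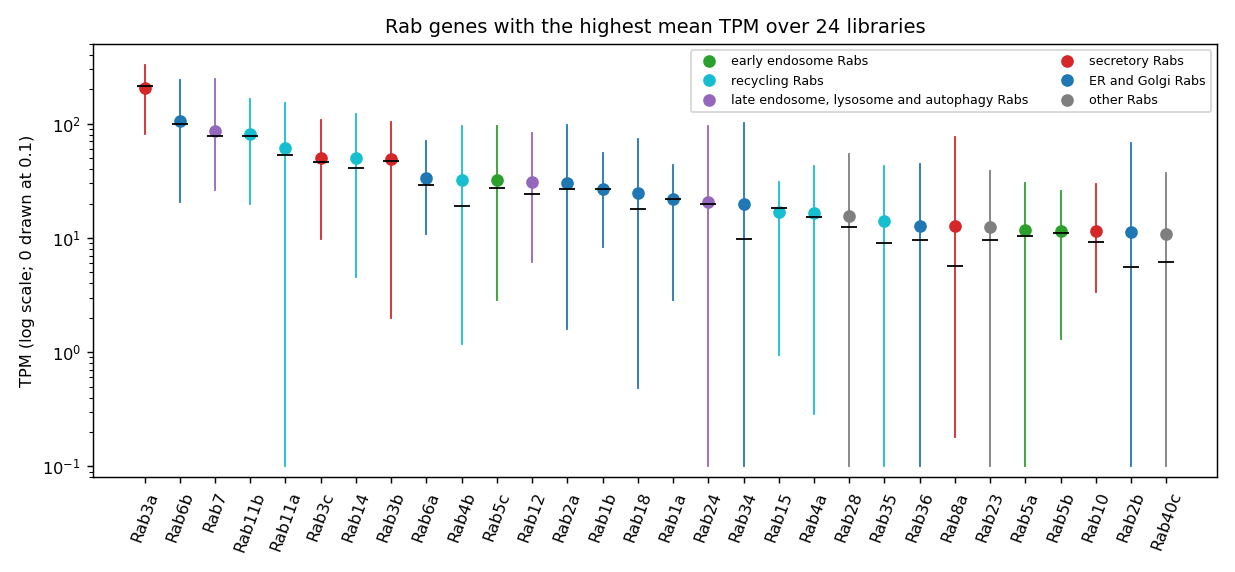
TPM (log axis) of the 30 Rab genes with the highest mean over 24 libraries, coloured by compartment class; dots are means, short bars medians and vertical lines the lowest to highest library. Rab3a stands at a mean of 204 TPM, and most members span more than 1 power of 10 between libraries.

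As a share of all Rab TPM, secretory Rabs held 29.7 ± 4.66% (SD, n = 24), endoplasmic reticulum and Golgi Rabs 25.4 ± 4.79%, recycling Rabs 22.1 ± 3.73%, late endosome, lysosome and autophagy Rabs 12.3 ± 3.28%, early endosome Rabs 6.66 ± 2.82% and the remaining members 3.81 ± 1.89%. Within families of paralogs 1 member often dominated. Rab7 held 99.4% of the summed TPM of Rab7 and Rab7b, Rab39b 97.6% of that of Rab39 and Rab39b, Rab6b 73.4% of that of Rab6a and Rab6b, and Rab2a 73.0% of that of Rab2a and Rab2b. Rab3a held 67.3 ± 10.5% of the Rab3 family, with Rab3c at 15.2 ± 6.42%, Rab3b at 14.9 ± 6.93% and Rab3d at 2.62 ± 4.52%. The Rab5 family was shared more evenly, with Rab5c at 52.7 ± 20.8%, Rab5a at 23.9 ± 13.4% and Rab5b at 23.4 ± 12.4%. Several pairs were also shared more evenly. The larger share was 61.9 ± 25.3% for Rab4b, 60.7 ± 27.1% for Rab9 (n = 23) and 60.3 ± 18.4% for Rab11b. It was 56.4 ± 19.0% for Rab1b, 53.9 ± 29.2% for Rab27a and 53.8 ± 27.8% for Rab8a.

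Detection was uneven. Counts were above 0 in all 24 libraries for 28 of the 59 members, and 34 had a median of 100 or more counts. Rab25, an epithelial recycling Rab, was at 0 in every library, and a count of 0 allows up to 3 counts in a library. Rab17, another epithelial member, had 4 counts in 1 library, Rab19 had 14 counts in 1 library, Rab20 and Rab38 were above 0 in 2 libraries each, Rab32 in 4, Rab44 in 5 and Rab39 in 6. These 8 members were not tested. An exon of another gene overlaps 15 members on the opposite strand and 6 on the same strand. The library kit keeps strand, but the strand setting of the counting is not given in the sources used here, so reads from such pairs may not be separated. Among the members with an overlapping gene are Rab3b (8030443G20Rik), Rab10 (Rab10os), Rab3a (Mpv17l2), Rab5a (Pp2d1), Rab7 (Gm5577), Rab24 (Prelid1) and Rab11a. Expected counts were not whole numbers in at least 1 library for 41 members, as can arise where reads are divided between genes.

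Libraries differed in depth and in content. Total counts ran from 4688258 to 13443438, and 40 to 52 Rab genes were detected per library. Chat, the gene of the stained enzyme, was under 1 CPM in 3 of 6 Ts65Dn control-diet libraries (replicates 3, 5 and 6), in 1 of 6 2N control-diet libraries (replicate 5), in 1 of 4 supplemented 2N libraries (replicate 3) and in 1 of 8 supplemented Ts65Dn libraries (replicate 7). Astrocyte, oligodendrocyte and GABAergic neuron markers were abundant in every group: the summed level of 9 oligodendrocyte markers ran from 728 to 4000 CPM and that of 9 cholinergic markers from 7.48 to 505 CPM. Rab transcripts are made by all of these cells, so the values describe the captured material and not cholinergic neurons alone. In such pools, fewer cells of a type and less RNA per cell cannot be told apart. Counts of Xist, which is made from the inactive X chromosome of females, reached 50 or more in 4 libraries (Ts65Dn control-diet replicates 1, 2 and 6, and supplemented 2N replicate 2), against labels that give only males. In the series table, the columns of supplemented Ts65Dn replicates 2 and 5 stand beside the supplemented 2N columns, against their labels. Results are therefore given without these libraries where that matters. No label gives the litter, and p-values treat the animals as independent.

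Ts65Dn and 2N mice on the control diet were compared first, which addresses the effect of the trisomy. No Rab gene was called (adjusted p under 0.05 by edgeR's quasi-likelihood test), against 0.336% of all 19967 genes tested. Of the 51 Rab genes, 41 had a negative log2 fold change, against 50.8% of all genes, and the median was -0.31 against -0.02 for all genes and -0.04 for all protein-coding genes. An unadjusted p under 0.05 was found for 4 Rab genes, all lower in Ts65Dn, against 5.55% of all genes as lower, 5.36% as higher and 10.9% in either direction. The summed Rab level was 2070 ± 226 CPM (SD, n = 6) in 2N and 1580 ± 268 CPM (SD, n = 6) in Ts65Dn. In CPM scaled by TMM factors the 2N libraries ran from 1700 to 2320 and the Ts65Dn libraries from 1200 to 1890, so the groups overlapped. In TPM the summed level ran from 1360 to 1870 in 2N and from 546 to 1250 in Ts65Dn, without overlap. The median of all genes was also lower in Ts65Dn on that scale, by -0.28 in mean log2 of TPM plus 1. No single Rab gene had non-overlapping groups in CPM. Over all genes 0.366% did with Ts65Dn lower and 0.265% with Ts65Dn higher.

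Markers of several cell types also had lower values in these Ts65Dn libraries. All 9 cholinergic markers had a negative log2 fold change (median -0.89), and their summed level was 183 to 278 CPM in 2N and 7.48 to 213 CPM in Ts65Dn. The 9 oligodendrocyte markers were also all negative, with summed levels of 2950 to 3900 CPM in 2N and 728 to 4000 CPM in Ts65Dn (median -0.59). Of 9 astrocyte markers 8 were negative (median -0.64), as were 5 of 6 GABAergic neuron markers (median -0.46), 4 of 6 vessel markers (median -0.07) and 3 of 7 microglia markers (median 0.34). No marker of these 6 lists was called by edgeR. Of the 6 glutamatergic neuron markers 4 were negative (median -0.24). Among them Camk2a, a kinase of excitatory neurons, rose by 1.85 on the log2 scale (edgeR adjusted p = 0.0472). The summed glutamatergic level was 160 to 834 CPM in 2N and 295 to 3360 CPM in Ts65Dn. The part of cell content in the Rab values was not tested. Without the libraries with Chat under 1 CPM the Rab median was -0.37, and without those with 50 or more Xist counts it was -0.31. With the first part of the animal identifier (14 to 17, of unstated meaning) as a factor, it was -0.35. Within identifiers beginning with 17, which hold 4 mice of each of these groups, the median difference in mean log2 CPM was -0.60, with 34 of 51 Rab genes negative. On that scale, over all libraries of the 2 groups, the Rab median was -0.47 and that of all genes -0.21.

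**Figure D2:**
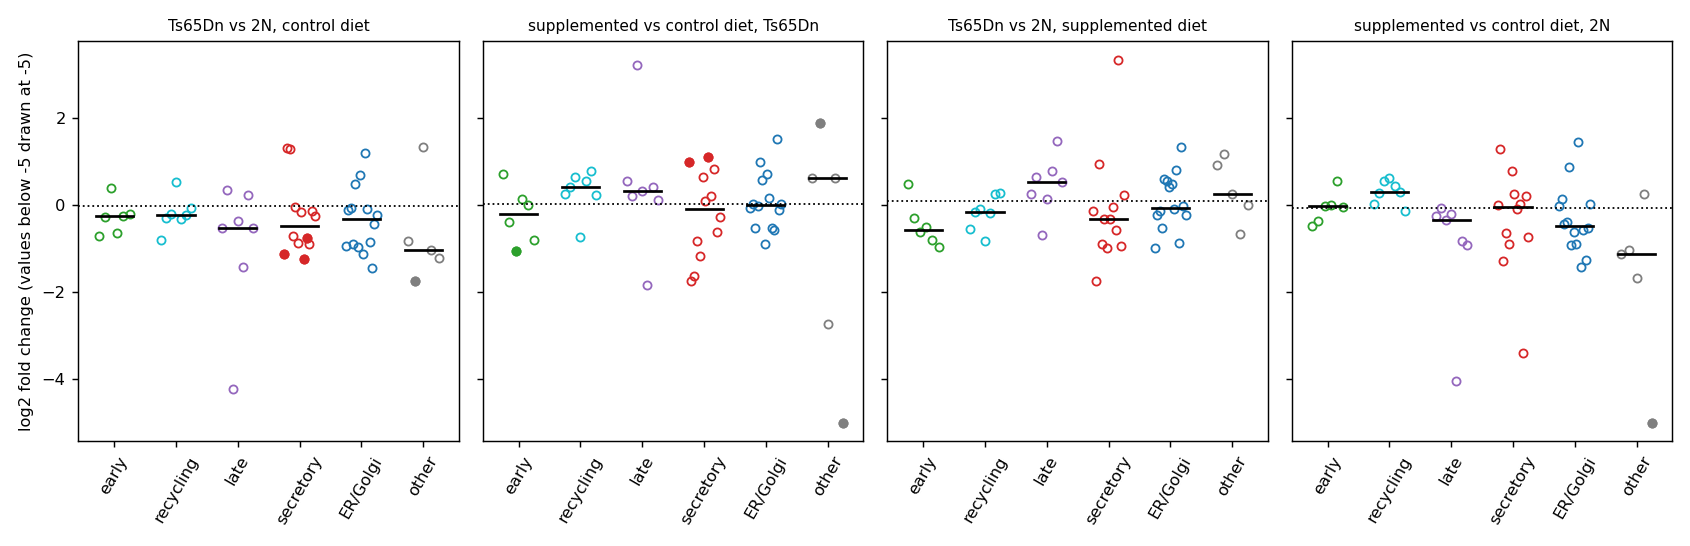
Log2 fold changes of the 51 tested Rab genes by compartment class in 4 comparisons; each circle is a gene, filled where the unadjusted p was under 0.05, bars are class medians and the dotted line is the median of all genes tested. On the control diet most genes lie below the line (41 of 51 negative), and no gene in any panel passed adjustment; Rab42, whose fitted value lies lower, is drawn near the lower edge in both diet panels.

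Secretory Rabs held 3 of the 4 lowest p-values of that comparison. Rab3b, a paralog of the synaptic vesicle Rab Rab3a, had 49.1, 66.0 and 108 CPM as the lowest, median and highest of 6 2N control-diet libraries. In the 6 Ts65Dn control-diet libraries these were 3.14, 31.4 and 61.1 CPM. In supplemented mice, the 4 Rab3b values of 2N were 73.8, 86.4, 28.5 and 85.2 CPM, and the 8 of Ts65Dn had 19.9, 81.2 and 86.2 CPM as lowest, median and highest. The control-diet groups overlapped: 5 of the 6 Ts65Dn control-diet libraries lay below every 2N control-diet library, and replicate 4 did not. The log2 fold change was -1.24 (SE 0.45, 95% interval -2.14 to -0.34) with an adjusted p of 0.218 by edgeR. Leaving out the libraries with Chat under 1 CPM gave -0.56 (edgeR adjusted p = 0.821). Within identifiers beginning with 17 the difference was -2.02 in mean log2 CPM.

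Rab10, which carries exocytic vesicles to the plasma membrane, had 24.2, 48.9 and 55.9 CPM in 2N and 11.3, 19.6 and 29.7 CPM in Ts65Dn on the control diet (lowest, median, highest). All 6 Ts65Dn libraries lay below the 2N mean, and 4 lay below every 2N library. The log2 fold change was -1.12 (SE 0.42, 95% interval -1.98 to -0.27, edgeR adjusted p = 0.236). Without the libraries with Chat under 1 CPM it was -1.14, and within identifiers beginning with 17 the difference was -1.18 in mean log2 CPM.

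Rab3c, another vesicle Rab of the Rab3 family, had 148, 263 and 453 CPM in 2N and 91.5, 161 and 239 CPM in Ts65Dn on the control diet. The fitted log2 difference was -0.75 (SE 0.28, 95% interval -1.32 to -0.19, edgeR adjusted p = 0.23). On the supplemented diet the 4 2N libraries had 328, 330, 236 and 231 CPM, and the 8 Ts65Dn libraries had 123, 165 and 301 CPM as lowest, median and highest. There 6 of 8 Ts65Dn libraries lay below every 2N library, and the other two were replicates 2 and 5, whose columns stand beside the 2N ones. The log2 fold change on that diet was -0.57 (SE 0.29, edgeR adjusted p = 0.545), and -0.87 (adjusted p = 0.226) without replicates 2 and 5. By contrast Rab3a, the most abundant member, had 216 ± 66.0 CPM in 2N and 194 ± 85.6 CPM in Ts65Dn on the control diet (SD, n = 6 each). Its log2 fold change was -0.16 with a 95% interval of -0.72 to 0.41. The share of Rab3 family TPM held by Rab3a was 56.7 ± 8.25% and 72.0 ± 7.04% in those groups, and that held by Rab3b was 20.5 ± 8.13% and 10.7 ± 6.47%.

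**Figure D3:**
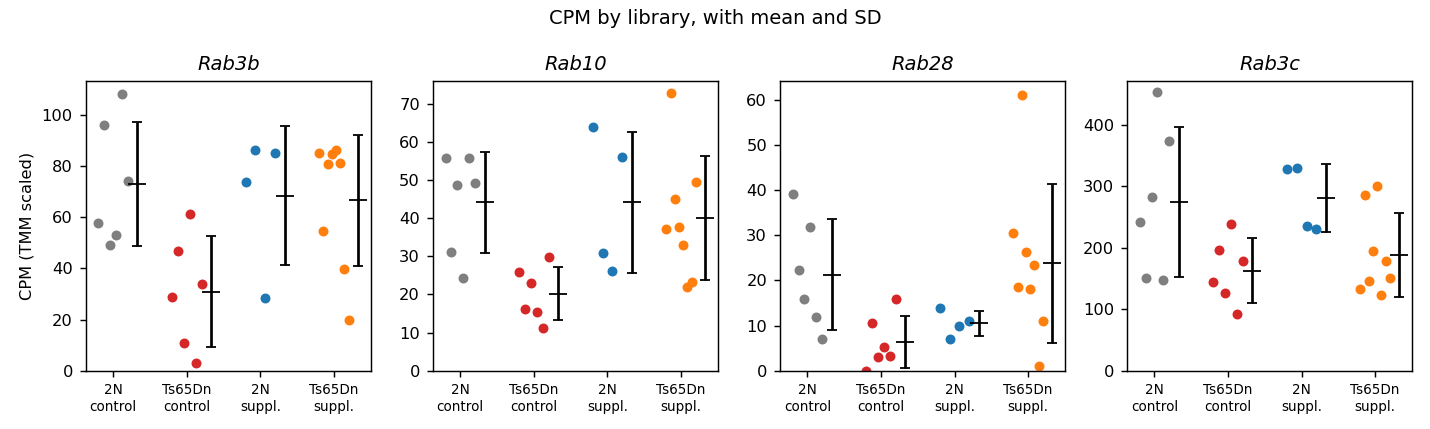
CPM (TMM scaled) of Rab3b, Rab10, Rab28 and Rab3c in every library of the 4 groups, with the group mean and SD beside the points. The Ts65Dn control-diet libraries lie low for all 4 genes (Rab10 between 11.3 and 29.7 CPM) but overlap the 2N control-diet libraries in each.

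Rab28, a Rab of cilia and photoreceptors, had 7.05, 19.0 and 39.1 CPM in 2N and 0, 4.29 and 15.8 CPM in Ts65Dn on the control diet. It differed by -1.74 on the log2 scale (SE 0.81, 95% interval -3.37 to -0.11, edgeR adjusted p = 0.397), and by -2.14 without the libraries with Chat under 1 CPM. In supplemented mice the 2N values were 13.9, 7.08, 10 and 11 CPM, and the Ts65Dn libraries had 1.13, 21.0 and 61.1 CPM. Of the 8 supplemented Ts65Dn libraries 6 lay above every supplemented 2N library, and replicate 7 lay below all of them. Among the tested Rab genes, Rab28 alone had an unadjusted p under 0.05 for the genotype by diet interaction, against 8.43% of all genes. The interaction was 2.92 on the log2 scale (SE 1.2, 95% interval 0.49 to 5.35, edgeR adjusted p = 0.468). No Rab gene was called for the interaction, against 0.00501% of all genes.

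In CPM the early endosome Rabs differed less than their spread on the control diet. Their summed level was 174 ± 36.8 CPM in 2N and 150 ± 36.8 CPM in Ts65Dn (SD, n = 6 each), and 5 of 6 members had a negative log2 fold change (median -0.25). In TPM the sum ran from 93.5 to 177 in 2N and from 35.3 to 92.0 in Ts65Dn, without overlap. Secretory Rabs did not overlap on that scale either, with 367 to 564 TPM in 2N and 181 to 356 TPM in Ts65Dn. The remaining classes overlapped. The median of all genes was also lower in Ts65Dn in TPM (-0.28 in mean log2 of TPM plus 1). The share of all genes without overlap in TPM was not computed. Rab5a, which fuses early endosomes, had 11.2, 30.4 and 53.0 CPM in 2N and 0, 18.7 and 46.8 CPM in Ts65Dn. Rab5b had 11.6, 28.5 and 67.8 CPM in 2N and 6.51, 30.6 and 41.3 CPM in Ts65Dn. Rab5c had 22.0, 31.6 and 50.0 CPM in 2N and 4.88, 26.5 and 64.2 CPM in Ts65Dn. The 3 paralogs overlapped between genotypes, and their log2 fold changes were -0.63 (95% interval -1.98 to 0.72), -0.24 (-1.36 to 0.88) and -0.19 (-1.31 to 0.92). All 3 intervals include 0 and reach past -1, so a difference of that size was not excluded for any of them. Rab21 and Rab22a, of early endosome sorting, had log2 fold changes of -0.71 and -0.26, and Rab31, which works between the Golgi and endosomes, 0.40.

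Recycling Rabs summed to 245 ± 45.8 CPM in 2N and 213 ± 29.8 CPM in Ts65Dn on the control diet, and 6 of 7 tested members were negative (median -0.23). Rab11a, of the recycling endosome, had 31.4, 42.2 and 50.3 CPM in 2N and 4.10, 25.2 and 51.7 CPM in Ts65Dn. For Rab11a 5 of 6 Ts65Dn libraries lay below every 2N library, and replicate 1 lay above all of them. Its log2 fold change was -0.79 (SE 0.63, 95% interval -2.06 to 0.48, edgeR adjusted p = 0.785). Rab11b had 56.4, 63.8 and 100 CPM in 2N and 37.1, 60.8 and 71.5 CPM in Ts65Dn, with a log2 fold change of -0.28. Rab4a and Rab4b, of the fast recycling route, had log2 fold changes of -0.23 and -0.07, and Rab14, which works between the Golgi and endosomes, had -0.19. Rab15, a neuronal recycling Rab, was the only recycling member with a positive value, 0.54 (SE 0.52). Its 2N libraries had 21.6, 22.2 and 33.9 CPM and its Ts65Dn libraries 10.2, 37.2 and 51.6 CPM.

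Late endosome, lysosome and autophagy Rabs summed to 205 ± 47.8 CPM in 2N and 160 ± 57.2 CPM in Ts65Dn on the control diet, with 5 of 7 tested members negative (median -0.51). Rab7 had 80.7, 112 and 139 CPM in 2N and 28.7, 95.8 and 127 CPM in Ts65Dn, and its log2 fold change was -0.36 (SE 0.31, 95% interval -0.97 to 0.26). The lowest Rab7 value was that of Ts65Dn control-diet replicate 3, which has the fewest counts and no Chat. Rab12, which directs transferrin receptor to lysosomes, had -0.53 (SE 0.48). Rab9, which returns receptors from late endosomes to the Golgi, and Rab24, an autophagy Rab, had 0.24 (SE 1.21) and 0.36 (SE 1.06), with libraries at or near 0 in several groups.

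**Figure D4:**
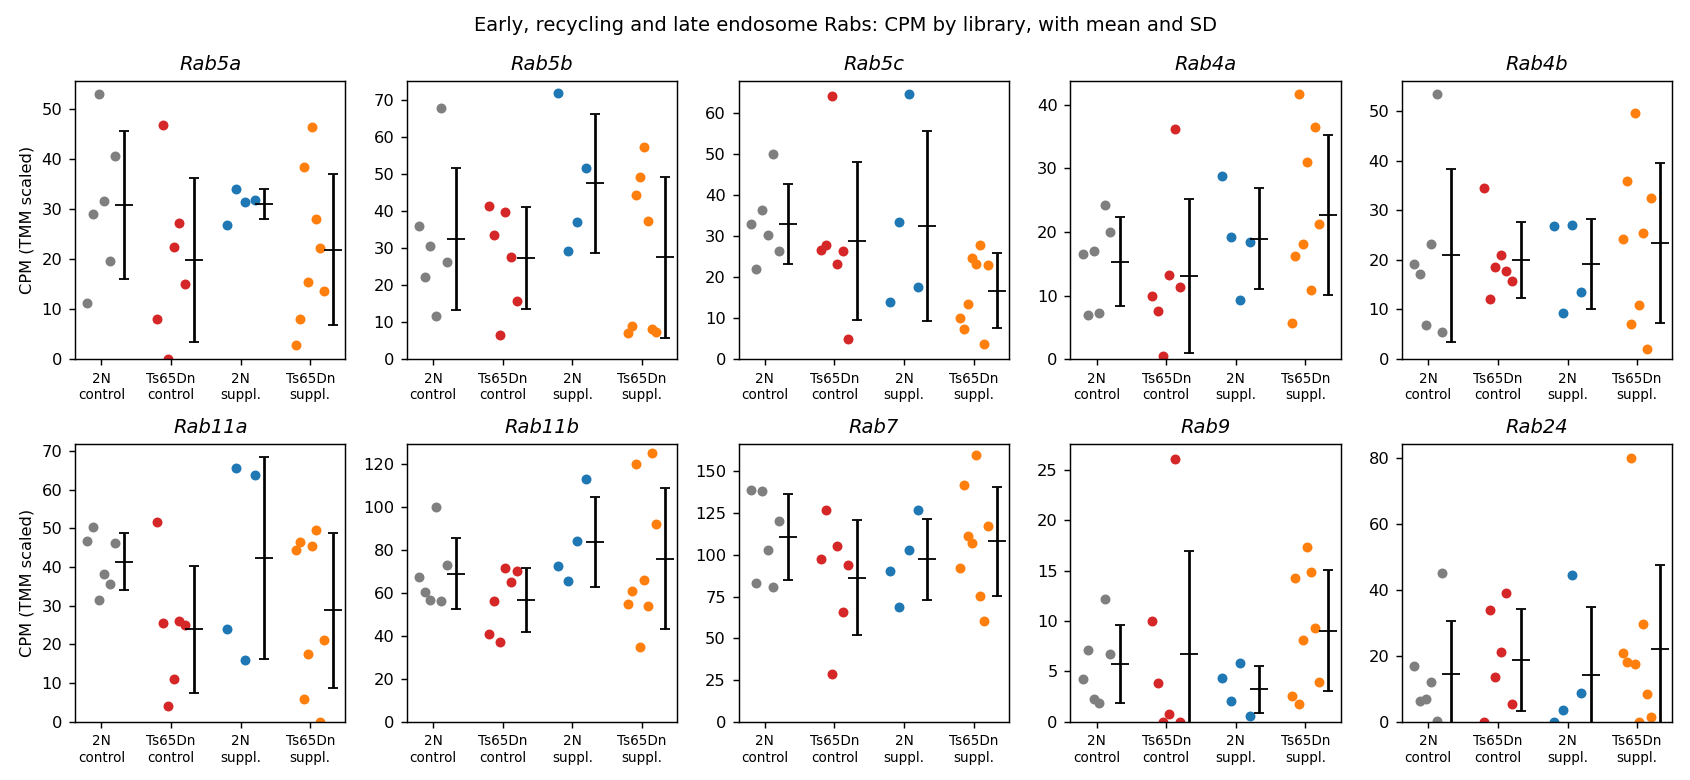
CPM (TMM scaled) of 10 early, recycling and late endosome Rabs in every library of the 4 groups, with the group mean and SD beside the points. The groups overlap for every gene shown; Rab11a on the control diet has 5 of 6 Ts65Dn libraries below all 2N libraries.

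Among endoplasmic reticulum and Golgi Rabs, which summed to 686 ± 90.0 CPM in 2N and 530 ± 74.1 CPM in Ts65Dn on the control diet, 11 of 14 tested members were negative (median -0.32). Rab6b, the most abundant of them, had 226, 278 and 307 CPM in 2N and 138, 257 and 295 CPM in Ts65Dn, a log2 fold change of -0.23 with a 95% interval of -0.70 to 0.25. Rab6a had -0.42 (SE 0.35). Rab34 had 1.20 (SE 1.1), a value that became -1.08 without the libraries with Chat under 1 CPM. Among the remaining members Rab23, a negative regulator of Hedgehog signalling, had -0.81 (SE 0.89). Among secretory Rabs, Rab26, which sits on vesicles, had the smallest p of the positive values at 1.30 (SE 1.17). It rested on Ts65Dn control-diet replicate 5, with 68.6 CPM, and was 0.08 without that library. Rab27b, of regulated secretion, had -0.04 (SE 0.87).

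Within Ts65Dn, the supplemented diet was compared with the control diet next, which addresses the lasting effect of maternal choline in trisomic offspring. No Rab gene was called, against 0.13% of all genes (edgeR). Of 51 Rab genes 20 were negative, against 48.0% of all genes, and the median was 0.14 against 0.04 for all genes. An unadjusted p under 0.05 was found for 5 Rab genes, 3 higher and 2 lower, against 9.62% of all genes (5.38% higher and 4.24% lower). Non-overlapping groups were found for no Rab gene, and for 0.0501% of all genes as lower and 0.02% as higher. Without supplemented replicates 2 and 5 the Rab median was -0.05, and with the identifier prefix as a factor it was 0.01. All 9 cholinergic markers had a positive log2 fold change in this comparison (median 1.5), with summed levels of 208 to 402 CPM in supplemented Ts65Dn libraries against 7.48 to 213 CPM. Of 9 oligodendrocyte markers 8 were positive (median 0.75), and of 9 astrocyte markers 6 were (median 0.10). Of 6 glutamatergic neuron markers 5 were negative (median -1.66), and Camk2a fell by 1.98 on the log2 scale (edgeR adjusted p = 0.0212). Their summed level was 99.4 to 617 CPM against 295 to 3360 CPM. Mitochondrial ribosomal RNA took 30.7 ± 8.10% of counts in supplemented Ts65Dn libraries (SD, n = 8) and 20.3 ± 6.20% in control-diet ones (SD, n = 6). The part of these markers and of this RNA in the Rab values was not tested. The comparison shares the control-diet Ts65Dn libraries with the one above, so the 2 sets of values are not independent.

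Rab3b had a log2 fold change of 1.11 in that comparison (SE 0.42, 95% interval 0.25 to 1.97, edgeR adjusted p = 0.283), and 5 of 8 supplemented libraries lay above every control-diet one. Without the libraries with Chat under 1 CPM it was 0.69, and with the identifier prefix as a factor 0.62. Rab10 had 0.99 (SE 0.40, 95% interval 0.18 to 1.80, edgeR adjusted p = 0.33), with a range of 21.9 to 72.9 CPM in supplemented Ts65Dn libraries, and 6 of 8 lay above every control-diet one. Rab28 had 1.90 (SE 0.78, 95% interval 0.33 to 3.47, edgeR adjusted p = 0.34), and again 6 of 8 lay above every control-diet library. Identifiers beginning with 16 hold 2 mice of each group, and there the differences in mean log2 CPM were 0.62 for Rab3b, 0.14 for Rab10 and 1.90 for Rab28. Identifiers beginning with 17 hold 1 supplemented and 4 control-diet mice, with differences of 0.27, 1.40 and 1.0.

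In the lower direction, Rab31 had 23.0, 39.6 and 47.2 CPM in control-diet Ts65Dn and 6.48, 14.0 and 41.1 CPM in supplemented Ts65Dn. The 2 supplemented libraries above the others were replicates 5 and 6, and the other 6 lay below every control-diet library. The fitted log2 difference was -1.04 (SE 0.50, 95% interval -2.05 to -0.03, edgeR adjusted p = 0.491). Rab42, a little-studied member, had the smallest p of the Rab genes here (edgeR adjusted p = 0.242), but it was above 0 in only 5 of 24 libraries. These were 2N control-diet replicates 1, 5 and 6, with 2.70, 0.535 and 16.5 CPM, and Ts65Dn control-diet replicates 3 and 5, with 2.17 and 6.36 CPM. It was at 0 in all 12 supplemented libraries, and no fold is given because the fitted value then depends on the prior count.

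The Rab5 genes in this comparison had log2 fold changes of 0.14 (Rab5a, SE 0.62), 0.00 (Rab5b, SE 0.52) and -0.79 (Rab5c, SE 0.52). Rab5c had 3.68, 18.2 and 27.8 CPM in supplemented Ts65Dn libraries, and 1 of the 8 lay below every control-diet Ts65Dn library. Early endosome Rabs together held 4.69 ± 2.09% of Rab TPM in supplemented Ts65Dn (SD, n = 8) and 7.32 ± 3.33% in control-diet Ts65Dn (SD, n = 6). The endoplasmic reticulum and Golgi share was also lower with supplementation, 21.5 ± 3.54% against 29.5 ± 5.85%. Higher with supplementation were the shares of recycling (24.6 ± 3.09% against 19.6 ± 3.76%) and secretory Rabs (31.0 ± 5.35% against 27.5 ± 5.52%). The late endosome, lysosome and autophagy share was 14.1 ± 3.92% against 12.4 ± 1.73%. Of the 7 tested recycling members 6 were positive (median 0.41), among them Rab4a at 0.79 (SE 0.65), Rab14 at 0.66 (SE 0.39), Rab11b at 0.41 (SE 0.31) and Rab11a at 0.27 (SE 0.59), while Rab15 had -0.72 (SE 0.49). Recycling Rabs summed to 271 ± 36.5 CPM with supplementation and 213 ± 29.8 CPM without. Of the 7 late endosome members 6 were positive (median 0.32), with Rab7 at 0.32 (SE 0.29, 95% interval -0.26 to 0.90). The secretory and Golgi classes were split evenly, with 6 of 12 and 7 of 14 positive. Rab27b had -1.16 (SE 0.81), with a median of 4.75 CPM in supplemented and 13.7 CPM in control-diet Ts65Dn libraries. Rab40b had -2.72 (SE 1.69) and was at or below 2.59 CPM in all supplemented Ts65Dn libraries.

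Ts65Dn and 2N mice of supplemented dams were compared in the same way. No Rab gene was called, against 0.18% of all genes, and none had an unadjusted p under 0.05, against 9.49% of all genes (2.49% lower and 6.99% higher; edgeR). Of the 51 Rab genes 29 were negative, against 45.9% of all genes, 21 were positive and Rab42 was 0. The median was -0.09 against 0.09 for all genes. No Rab gene had non-overlapping groups, against 0.411% of all genes as lower and 0.195% as higher. Summed Rab levels were 2010 ± 89.8 CPM in 2N (SD, n = 4) and 1750 ± 291 CPM in Ts65Dn (SD, n = 8). Mitochondrial ribosomal RNA took 20.3 ± 1.95% of counts in 2N and 30.7 ± 8.10% in Ts65Dn on this diet, with a range of 17.8% to 43.3% in the latter, and its part in these values was not tested. Early endosome Rabs summed to 176 ± 14.0 CPM in 2N and 125 ± 54.9 CPM in Ts65Dn, with 5 of 6 members negative (median -0.56). Late endosome, lysosome and autophagy Rabs went the other way, with 6 of 7 tested members positive (median 0.53). The median SE of this class was 1.16, and its members Rab29 and Rab7b were at 0 in 15 and 17 of the 24 libraries. Negative values were found for 5 of 7 recycling (median -0.15), 9 of 12 secretory (median -0.32) and 8 of 14 Golgi members (median -0.05). Among early endosome Rabs, Rab5c had the largest difference, -0.96 (SE 0.57, 95% interval -2.11 to 0.19), with 13.8, 33.4, 64.8 and 17.7 CPM in the 2N libraries. It was -0.38 without 2N replicate 3, a library with Chat under 1 CPM. Rab15 had -0.81 (SE 0.54), and 6 of 8 Ts65Dn libraries lay below every 2N library. Rab43 had 1.35 (SE 1.05) and was 0.48 without Ts65Dn replicate 7, which held 87.4 CPM. Rab3d, a secretory granule Rab, was at 0 in 3 of 4 supplemented 2N libraries and 3 of 8 supplemented Ts65Dn libraries.

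In 2N mice, supplementation was compared with the control diet over 4 and 6 libraries. No Rab gene was called, against 0.00501% of all genes (edgeR), and only Rab42 had an unadjusted p under 0.05, against 6.92% of all genes (5.06% lower and 1.86% higher). Of 51 Rab genes 32 were negative, against 53.2% of all genes (median -0.19 against -0.06). No Rab gene had non-overlapping groups, against 0.741% of all genes as lower and 0.596% as higher. Cell type markers differed here too. All 6 glutamatergic neuron markers were negative (median -1.62), as were 8 of 9 oligodendrocyte (median -0.46) and 8 of 9 astrocyte markers (median -0.15). Of 9 cholinergic markers 7 were positive (median 0.49), and GABAergic neuron markers were split evenly (median -0.08). None of these was called by edgeR, and the part of cell content in the Rab values was not tested. Rab3b and Rab10 had log2 fold changes of -0.09 (SE 0.49) and 0.00 (SE 0.47), and Rab28 had -1.02 (SE 0.90). Rab14 had 0.55 (SE 0.45), with 13.4, 44.2 and 121 CPM in control-diet 2N and 88.2, 85.5, 95.8 and 45.2 CPM in supplemented 2N. Recycling Rabs summed to 309 ± 7.83 CPM with supplementation and 245 ± 45.8 CPM without, and 6 of 7 tested members were positive (median 0.30). All 7 tested late endosome members were negative (median -0.33, median SE 1.19), with Rab7 at -0.19 (SE 0.34). The comparison shares the 4 supplemented 2N libraries with that of genotype on the supplemented diet, so the 2 sets of values are not independent. A test for any difference among the 4 groups called no Rab gene, against 1.08% of all genes, and 4 Rab genes (Rab42, Rab3c, Rab3b and Rab10) had an unadjusted p under 0.05, against 12% of all genes.

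The proteins that load, unload and read Rabs were described from lists of 9 carriers and prenylation factors, 33 exchange factors, 35 GTPase-activating proteins and 55 effectors, of which 9, 32, 35 and 51 were tested. Of these 127 genes none was called by edgeR in any comparison. An unadjusted p under 0.05 was found in 11 of the 127 for genotype on the control diet, against 10.9% of all genes. For diet in Ts65Dn it was found in 13, against 9.62% of all genes. The count was 2 for genotype with supplementation, against 9.49%, and 2 for diet in 2N, against 6.92%. With limma-voom none was called either. DESeq2 called Gdi2 and Rph3al for genotype on the control diet, where it called 326 of all 19967 genes. It called Micall2 for diet in Ts65Dn (236 of all genes) and Rph3al for diet in 2N (216 of all genes). Rph3al was also called for the interaction (268 of all genes), and Dennd6b for any difference among the 4 groups (341 of all genes). Without the filter on low counts edgeR called Gdi2 and Rph3al for genotype on the control diet, against 256 of all 39538 genes. For any difference it called these 2 with Hps1 and Mical3, 4 of 132 partner genes, against 7239 of all 39538 genes. On the control diet 7 of 9 carriers were negative (median -0.39), as were 19 of 32 exchange factors (median -0.09), 20 of 35 GTPase-activating proteins (median -0.03) and 26 of 51 effectors (median -0.01). Over all genes 50.8% were negative there (median -0.02). In supplemented against control-diet Ts65Dn 7 of 9 carriers (median 0.31) and 22 of 32 exchange factors (median 0.18) were positive. So were 20 of 35 GTPase-activating proteins (median 0.06) and 27 of 51 effectors (median 0.04). Over all genes 10372 of 19967 were positive (median 0.04).

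Gdi2, a GDP dissociation inhibitor that extracts inactive Rabs from membranes and keeps them soluble, came closest to the threshold. It had 181, 155, 91.8, 69.4, 141 and 103 CPM in 2N control-diet replicates 1 to 6, and 29.9, 54.1, 6.27, 65.0, 34.2 and 49.8 CPM in Ts65Dn control-diet replicates 1 to 6. The groups did not overlap, lower in Ts65Dn, as for 0.366% of all genes. A log2 fold change of -1.63 was fitted (SE 0.42, 95% interval -2.47 to -0.79, edgeR adjusted p = 0.0726). The adjusted p was 0.0179 with DESeq2, 0.00439 without a filter on low counts and 0.0335 without Ts65Dn replicate 4. It was 0.222 with limma-voom and 0.611 without the libraries with Chat under 1 CPM, where the log2 fold change was -1.29. Within identifiers beginning with 17 the difference in mean log2 CPM was -1.75, and all 4 Ts65Dn libraries lay below the 4 2N ones.

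On the supplemented diet Gdi2 had 77, 139, 50.5 and 109 CPM in 2N replicates 1 to 4, and in Ts65Dn 20.3, 75.2 and 144 CPM as lowest, median and highest. Supplemented against control-diet Ts65Dn gave 1.0 (SE 0.39, edgeR adjusted p = 0.294). Mical3, an effector of exocytic Rabs, had 234, 318 and 394 CPM in 2N and 307, 479 and 688 CPM in Ts65Dn on the control diet, a log2 fold change of 0.66 (SE 0.23, edgeR adjusted p = 0.214).

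Rph3al, an effector of Rab3 and Rab27 in secretion, had the smallest p of the effectors for genotype on the control diet. It was at 0 in all 6 2N control-diet libraries, and Ts65Dn control-diet replicates 1 to 6 had 0, 0.0949, 0, 0.823, 25.2 and 0 CPM. The Ts65Dn value thus rested on replicate 5, and no fold is given against a group at 0. The adjusted p was 0.163 with edgeR, 0.0462 without a filter on low counts and 1.11e-24 with DESeq2. Supplemented 2N replicates 1 to 4 had 9.39, 0, 6.76 and 10.9 CPM, and diet in 2N had an adjusted p of 0.566 with edgeR and 3.12e-21 with DESeq2. In supplemented Ts65Dn libraries Rph3al ran from 0 to 8.22 CPM. Micall2, a Rab effector of the same family as Micall1, had 0, 0.179 and 0.76 CPM in control-diet Ts65Dn and 0.345, 7.84 and 15.5 CPM in supplemented Ts65Dn. Of the 8 supplemented libraries 7 lay above every control-diet one. The log2 fold change was 4.81 (SE 1.72), with an adjusted p of 0.25 by edgeR and 0.0115 by DESeq2. Its 2N libraries spread from 0 to 10.7 CPM on the control diet.

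Rin2, an exchange factor for Rab5, had 2.28, 5.44 and 33.2 CPM in control-diet Ts65Dn and 12, 24.7 and 162 CPM in supplemented Ts65Dn, a log2 fold change of 1.80 (SE 0.64, edgeR adjusted p = 0.249). It was 1.04 without supplemented replicate 7, the library at 162 CPM. Micall1, an effector on recycling endosomes, had 37.6, 68.4 and 88.4 CPM in control-diet Ts65Dn and 45.1, 112 and 175 CPM in supplemented Ts65Dn, a log2 fold change of 0.68 (SE 0.29, edgeR adjusted p = 0.378). In 2N mice Micall1 had 46.1, 59.2 and 85.2 CPM on the control diet and 106, 86.2, 102 and 122 CPM with supplementation. Those groups did not overlap, higher with supplementation, as for 0.596% of all genes. The log2 fold change there was 0.77 (SE 0.34, 95% interval 0.09 to 1.45, edgeR adjusted p = 0.598).

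**Figure D5:**
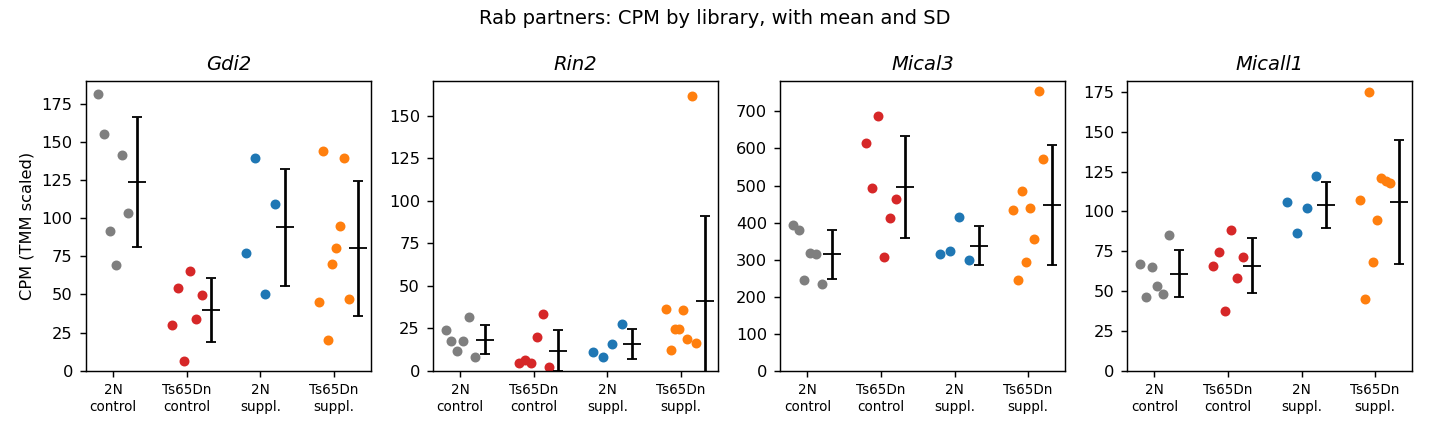
CPM (TMM scaled) of the Rab carrier Gdi2, the Rab5 exchange factor Rin2 and the effectors Mical3 and Micall1 in every library of the 4 groups, with the group mean and SD beside the points. Gdi2 lies at or below 65.0 CPM in all Ts65Dn control-diet libraries and at or above 69.4 CPM in all 2N control-diet libraries.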

How the data were processed

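Total RNA was measured in 24 libraries, 1 per mouse. Per the submitters' processing notes, reads were processed with Trimmomatic 0.39, STAR and RSEM. The notes name the builds GRCm39 and mm10 without their roles, so gene coordinates are not given apart from RefSeq promoter windows. The deposited tables hold RSEM expected counts, which are not normalized, and TPM, which the authors' RSEM run scaled by transcript length; the FPKM values that the authors' RSEM run also gave were not used. Symbols and chromosomes came from GENCODE M21.

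Expected counts were rounded and tested with edgeR 4.0.16 (R 4.3.3; TMM factors, filterByExpr with a minimum count of 10, quasi-likelihood F test, two-sided). All 24 libraries entered 1 fit, and p-values were adjusted by Benjamini-Hochberg over 19967 genes, with calls at an adjusted p under 0.05. Levels are CPM with TMM-scaled library sizes between groups and TPM between genes. Standard errors and 95% intervals came from the F statistics. The script was tested on simulated counts that varied less between libraries than these data and held large changes in well-counted genes. That test does not measure how often a change would be missed here. The median of all genes differed between genotypes by -0.28 in mean log2 of TPM plus 1 and -0.21 in mean log2 CPM on the control diet, and by -0.40 and -0.04 on the supplemented diet. TPM was used between groups as shares within the Rab genes. Its only other use for Rab genes between groups was on the control diet, for class sums, the sum of all Rabs and Rab3a.

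Groups came from the genotype and treatment labels. Alternatives were DESeq2 1.42.0 size factors and test, limma-voom 3.58.1 with quality weights, no filter, the identifier prefix as a factor, and leaving out single libraries, those with Chat under 1 CPM, those with 50 or more Xist counts and the 2 with the fewest genes. Leaving out supplemented Ts65Dn 2 and 5 was added after seeing the data. Named Rab genes were 11 fixed genes, the 2 most abundant of each class and the 3 with the smallest p in each direction of the first 4 comparisons, 29 in all. For partner lists they were the 2 with the smallest p per comparison; not all are printed. Members, lists and tests were chosen with earlier results of these data known.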

Additional observations from a re-analysis of the deposited data

Results flagged for a closer look

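Among 116 sets of values (29 named Rab genes in 4 groups), 17 had a highest CPM that stood apart from the rest of its group by more than Dixon's 95% limit. Chance flags about 1 in 20 groups (5.8 here) where values are normally distributed; CPM cannot fall below 0 and these values are skewed, so that number does not apply as it stands. Ts65Dn control-diet replicate 5, a library with Chat under 1 CPM, accounted for 5 of them: Rab26 at 68.6 CPM (the others 0.724 to 19.4), Rab3d at 17.2, Rab40b at 18.5, Rab42 at 6.36 and Rab4a at 36.2 CPM.

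The others were spread over 9 libraries. In control-diet 2N mice they were Rab15 at 33.9 CPM in replicate 3 and Rab24 at 45.2 and Rab42 at 16.5 CPM in replicate 6. In supplemented 2N mice they were Rab3d at 2.15 CPM in replicate 1, Rab7b at 0.625 CPM in replicate 2 and Rab40b at 2.82 CPM in replicate 3, each with the other libraries of its group at or near 0. In supplemented Ts65Dn mice they were Rab24 at 80.0 and Rab3d at 28.3 CPM in replicate 3, Rab7b at 2.24 CPM in replicate 4, Rab43 at 87.4 CPM in replicate 7, and Rab23 at 47.3 and Rab34 at 39.1 CPM in replicate 8. The causes were not tested.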

How the results depend on the processing

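No Rab gene was called in the 4 comparisons of 2 groups or for the interaction under any alternative run. For any difference among the 4 groups, 5 were called without the filter on low counts (Rab3c, Rab19, Rab32, Rab38 and Rab42, of which only Rab3c had counts in every library), where 7239 of 39538 genes passed, and 0 otherwise. The median Rab log2 fold change stayed between -0.49 and -0.25 for genotype on the control diet, and ran from -0.05 to 0.24 for diet in Ts65Dn, from -0.16 to -0.01 for genotype with supplementation and from -0.40 to -0.11 for diet in 2N. Over all genes on the control diet, 67 were called, 326 with DESeq2, 3 with limma-voom and 2 without the libraries with Chat under 1 CPM; leaving out 1 library gave 4 (Ts65Dn replicate 3) to 127 (Ts65Dn replicate 4). No paired analysis was possible because replicate numbers follow accession order and no label links animals of different groups.

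Of 80 log2 fold changes of named genes, 13 changed sign under some setting, all of them Rab genes that were not called; the cause was not tested. For Ts65Dn against 2N on the control diet, leaving out the libraries with Chat under 1 CPM gave -0.53 for Rab26, 0.59 for Rab27b, -1.08 for Rab34, 0.13 for Rab3a and 0.57 for Rab5b. Leaving out those with 50 or more Xist counts gave 0.13 for Rab4a and 0.22 for Rab5c. Leaving out the 2 with the fewest genes gave 0.18 for Rab27b and 0.02 for Rab4a. The prefix factor gave 0.40 for Rab27b, and limma-voom gave -2.10 for Rab9. For supplemented against control-diet Ts65Dn, the prefix factor gave -0.03 for Rab11a and -0.20 for Rab3a, limma-voom -0.11 and -0.08. Without libraries with Chat under 1 CPM Rab3a was -0.30 and Rab5a -0.20, and without the 2 with the fewest genes -0.08 and -0.11. Without the libraries with 50 or more Xist counts Rab24 was -0.15. Without supplemented replicates 2 and 5 Rab11a was -0.05 and Rab9 -0.01.

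Leaving out 1 library at a time reversed 16 of 990 values. On the control diet the ranges were -0.39 to 0.25 for Rab27b, -0.85 to 0.02 for Rab4a, -0.42 to 0.11 for Rab5b, -0.61 to 0.03 for Rab5c and -0.99 to 0.61 for Rab9. For diet in Ts65Dn they were -0.43 to 0.58 for Rab24, -0.04 to 0.29 for Rab3a and -0.12 to 0.59 for Rab5a. For Gdi2 on the control diet the range was -1.82 to -1.41.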
